A study of Mus musculus with 16 samples.

Results

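The genes described here are 9 that endothelial biology uses to tell arteries, veins and capillaries apart, together with the endothelial connexins: *Efnb2*, *Bmx*, *Gja5* and *Gja4* on the arterial side, *Ephb4* and *Nr2f2* on the venous side, the broadly expressed connexin *Gja1*, and the capillary genes *Car4* and *Gpihbp1*. They were chosen by name, with earlier results of these data known, and all 9 were found among the 55414 genes of the deposited table. All 9 had enough counts to be tested, as had 15693 genes in all. The cells were mouse lung endothelial cells (MLECs) in culture, selected with antibodies to CD31 and then ICAM2 in 4 independent isolations. The mice, on a C57BL/6 background, carried *Rosa26*-CreERT2, floxed *Eng* on both alleles (Eng fl/fl) and the Immorto transgene, which gives conditional immortality. *Eng* encodes endoglin, a co-receptor for the circulating ligand BMP9. Each isolation gave 4 libraries, 1 per group, so there were 16 libraries of gene-level read counts in all.

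Ctrl cells (labelled WT) carried the same alleles and received vehicle, and KO cells received 4-OH-tamoxifen, which activates the ubiquitously expressed Cre in the culture dish. In both, serum-starved cells were then given PBS or ligand for 90 min. The Ctrl PBS and KO PBS groups received no ligand. The Ctrl sENG(M):BMP9 group received BMP9 in complex with monomeric soluble endoglin, and the KO pro:BMP9 group received BMP9 bound to its prodomain, each dosed at 0.2 ng/ml by its growth factor domain. Loss of *Eng* and exposure to tamoxifen cannot be told apart, and a difference between the ligand responses cannot be told apart from a difference between the ligand forms.

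Arterial and venous endothelial cells carry different surface and nuclear proteins before and after blood flow begins. The membrane ligand ephrin-B2 (*Efnb2*) marks arteries and its receptor EphB4 (*Ephb4*) marks veins, and contact between cells that carry them helps to keep the vessel types apart. COUP-TFII (*Nr2f2*) is a nuclear receptor that maintains venous identity, whereas the connexins 37 (*Gja4*) and 40 (*Gja5*) form gap junctions between arterial endothelial cells, and connexin 43 (*Gja1*) is shared with many other cell types. BMP9 and the related BMP10 act through the receptor ALK1, and faults in this pathway cause direct connections between arteries and veins in hereditary haemorrhagic telangiectasia.

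Libraries held 14869115 to 17242117 counts on genes, with a median of 15996523.5. Values are given as CPM, counts scaled to a common library size with TMM (a normalisation between libraries), or as FPKM, the same divided by gene length in kilobases, which is used wherever different genes are compared. *Eng* itself fell in every isolation, from 432, 593, 375 and 439 CPM in Ctrl PBS (isolations 1 to 4) to 40.1, 50.5, 54.2 and 59.9 CPM in KO PBS. With ligand, *Eng* lay at 652, 775, 524 and 611 CPM in Ctrl cells and at 115, 130, 122 and 114 CPM in KO cells. Its increase with ligand was 1.40-fold in Ctrl cells and 2.35-fold in KO cells. All 10 pan-endothelial markers were detected in every library, with a summed level of 3550 to 7705 CPM. Of 7 lymphatic markers, *Lyve1* and *Flt4* were high, with means of 4236 and 803 CPM. The others were lower: *Reln* had a mean of 144 CPM, *Pdpn* 93.9, *Prox1* 31.8, *Mmrn1* 19.1 and *Ccl21a* 1.29 CPM. The mural cell and fibroblast markers summed to between 102 and 838 CPM. Of 9 epithelial markers, which summed to between 62.8 and 195 CPM, *Sftpc* and *Sftpb* had at most 3 counts in any library, while *Krt18* had 781 to 2808 counts. The 7 leukocyte markers summed to between 37.9 and 54.2 CPM. In such bulk libraries, fewer cells of a type and less RNA per cell cannot be told apart.

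The sequences immediately before 4 of these genes are shown because 3 of them (*Gja4*, *Ephb4* and *Nr2f2*) responded to ligand, and *Efnb2*, the partner of *Ephb4*, did not. Each is the 250 bases before the transcription start in the RefSeq promoter table (GRCm38.p6), written 5′ to 3′ on the strand of the gene, and each had a single exact match on its chromosome in GRCm39: chr4:127207833-127208082 (minus strand) for *Gja4*, chr5:137348121-137348370 (plus strand) for *Ephb4*, chr7:70016495-70016744 (minus strand) for *Nr2f2* and chr8:8711243-8711492 (minus strand) for *Efnb2*. Capitals mark matches on either strand to GGCGCC or GGAGCC, GC-rich motifs known to bind SMAD1 and SMAD5, and to GTCTG, the short SMAD-binding element.
Gja4: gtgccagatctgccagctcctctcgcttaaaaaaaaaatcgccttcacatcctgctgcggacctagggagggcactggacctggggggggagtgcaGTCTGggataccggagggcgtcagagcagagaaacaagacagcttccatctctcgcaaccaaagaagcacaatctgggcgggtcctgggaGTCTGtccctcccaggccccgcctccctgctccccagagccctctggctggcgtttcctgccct
Ephb4: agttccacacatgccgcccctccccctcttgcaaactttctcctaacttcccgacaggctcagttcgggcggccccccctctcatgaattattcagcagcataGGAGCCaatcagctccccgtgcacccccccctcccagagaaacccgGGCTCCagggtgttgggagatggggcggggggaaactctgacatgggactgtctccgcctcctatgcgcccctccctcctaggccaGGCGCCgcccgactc
Nr2f2: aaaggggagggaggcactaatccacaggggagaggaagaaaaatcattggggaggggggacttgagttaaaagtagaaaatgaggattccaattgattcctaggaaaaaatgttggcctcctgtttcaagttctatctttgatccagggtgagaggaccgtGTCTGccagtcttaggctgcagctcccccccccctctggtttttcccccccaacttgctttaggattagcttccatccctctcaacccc
Efnb2: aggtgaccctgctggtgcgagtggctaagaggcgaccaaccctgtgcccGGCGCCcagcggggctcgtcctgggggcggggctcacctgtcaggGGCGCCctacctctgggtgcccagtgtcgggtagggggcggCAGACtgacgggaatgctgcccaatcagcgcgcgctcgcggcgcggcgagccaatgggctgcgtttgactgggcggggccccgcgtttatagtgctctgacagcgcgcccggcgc

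The *Gja4* sequence held 2 copies of GTCTG, which begin 154 and 64 bases before the start, and neither GC-rich motif. The *Ephb4* sequence held 1 GGCGCC, which begins 15 bases before the start, and 2 matches to GGAGCC, and the *Nr2f2* sequence held 1 GTCTG. The *Efnb2* sequence held 2 copies of GGCGCC and 1 of GTCTG. Among 32851 windows of the same length in the table, 9.6% held GGCGCC, 26% held GGAGCC and 42.2% held GTCTG. Of the other members with an entry, *Gja1* and *Gja5* held no match in their windows, *Bmx* held 1 GGAGCC, and *Car4* held 2 GGAGCC and 1 GTCTG. Such motifs therefore lay before genes that responded to ligand and before *Efnb2*, and none lay in the window of *Gja1*, which responded. The matches describe the letters only.

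Per length, *Efnb2* and *Ephb4* were the highest of the 9 genes, with mean levels of 52.5 and 33.5 FPKM over the 16 libraries. They were followed by *Gja1* (14.8 FPKM) and *Nr2f2* (11.7 FPKM), then by *Gja4* (3.86 FPKM), *Gja5* (3.70 FPKM) and *Bmx* (2.64 FPKM). *Gpihbp1* (0.365 FPKM, 2 to 27 counts) and *Car4* (0.228 FPKM, 2 to 19 counts) were the lowest. MLECs in culture thus carried the RNA of arterial and venous genes side by side, and little RNA of both capillary genes. The 25 other capillary genes counted below had mean levels from 0.554 to 700 CPM, so these 2 genes do not stand for the class. Only *Ephb4* over *Gja1* and *Bmx* over *Gpihbp1* were neighbours whose order held in all 16 libraries. *Efnb2* exceeded *Ephb4* in 14 of 16 libraries, *Gja1* exceeded *Nr2f2* in 14, *Nr2f2* exceeded *Gja4* in 15, *Gja5* exceeded *Bmx* in 10 and *Gpihbp1* exceeded *Car4* in 12. *Gja4* was above *Gja5* in 7 of 16 libraries only, so that their order did not hold.

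**Figure D1:**
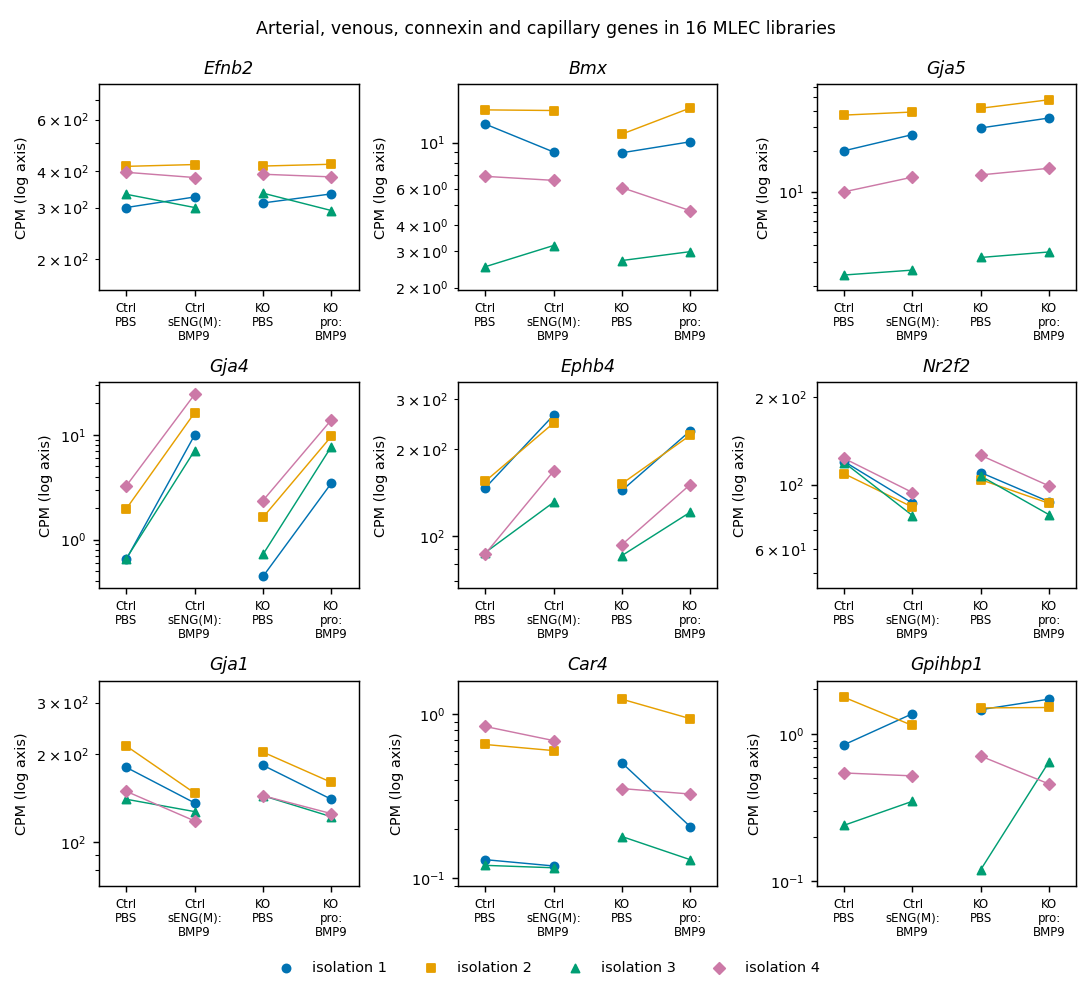
Level of each of the 9 genes (CPM, log axis) in the 16 libraries, by group; point shape and colour give the isolation, and lines join PBS and ligand in the same isolation and genotype. Lines rise in all 4 isolations for *Gja4* and *Ephb4* and fall in all 4 for *Nr2f2* and *Gja1*, and *Gja5* and *Bmx* are lowest in isolation 3 in every group.

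The first question was which of these genes respond to 90 min of ligand. In Ctrl cells, 4 of the 9 passed (quasi-likelihood test of edgeR blocked by isolation, Benjamini-Hochberg adjusted p under 0.05), against 9.69% of all tested genes. *Gja4* and *Ephb4* rose (2 of 9, against 5.86% of tested genes higher) and *Nr2f2* and *Gja1* fell (2 of 9, against 3.83% lower). In KO cells, 4 of the 9 passed, against 5.59% of tested genes, and they were the same genes in the same directions, with 3.68% of tested genes higher and 1.92% lower. The responses thus crossed the arterial and venous classes: an arterial connexin and a venous receptor rose, and a venous transcription factor and a broadly expressed connexin fell.

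*Gja4*, which encodes connexin 37, had the largest response of the 9. It lay at 0.649, 1.97, 0.659 and 3.26 CPM in Ctrl PBS (isolations 1 to 4; 10 to 54 counts) and at 9.97, 16.3, 7.09 and 24.4 CPM after sENG(M):BMP9 (122 to 423 counts). In KO cells it lay at 0.444, 1.63, 0.721 and 2.36 CPM in PBS and at 3.45, 9.68, 7.71 and 13.9 CPM after pro:BMP9. Every ligand-treated library was above every PBS library of the same genotype. The increase was 9.03-fold in Ctrl cells (log2 fold change 3.17, SE 0.218, edgeR adjusted p = 6.66e-09) and 6.87-fold in KO cells (2.78, SE 0.241, edgeR adjusted p = 2.50e-07), and it ranged from 5.58-fold to 13-fold over the single isolations of both genotypes. The gene model of *Gja4* (ENSMUSG00000050234, chromosome 4, 127205214 to 127207832, minus strand) overlaps an antisense long non-coding RNA by 686 exon bases in the GENCODE annotation. The libraries were stranded, but whether strand was used in counting is not given in the sources used here.

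*Ephb4* (ENSMUSG00000029710, chromosome 5, 137348371 to 137376931, plus strand), the venous receptor for ephrin-B2, rose in every isolation. It lay at 147, 155, 87.6 and 86.7 CPM in Ctrl PBS and at 263, 247, 131 and 168 CPM after sENG(M):BMP9. The KO cells rose from 144, 152, 85.5 and 93.3 CPM to 232, 224, 121 and 151 CPM after pro:BMP9. The groups overlapped, since isolations 1 and 2 began above the level that isolation 3 reached with ligand. Within isolations the increase was 1.70-fold in Ctrl cells (log2 0.76, SE 0.0507, edgeR adjusted p = 4.52e-09) and 1.53-fold in KO cells (log2 0.61, SE 0.0509, edgeR adjusted p = 1.44e-07). Without the isolation as a block, neither increase passed (adjusted p = 0.529 and 1.00).

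*Efnb2* (ENSMUSG00000001300, chromosome 8, 8667434 to 8711242, minus strand), the arterial ligand of that receptor, had a higher mean CPM than 97.2% of tested genes and did not pass in either genotype. It lay at 300, 415, 333 and 396 CPM in Ctrl PBS and at 326, 421, 300 and 380 CPM after sENG(M):BMP9, with 2 isolations higher and 2 lower. KO cells had 311, 416, 336 and 390 CPM in PBS and 334, 422, 293 and 382 CPM after pro:BMP9. The change in Ctrl cells was -1.33% with a 95% interval of -7.6% to 5.37%, and in KO cells -1.69% (-7.95% to 4.99%), so that a rise of the size of that of *Ephb4* lay outside both intervals. The level per length of *Efnb2* relative to *Ephb4* therefore fell in all 4 isolations of each genotype, from 2.22 ± 0.764 (SD, n = 4) to 1.27 ± 0.338 in Ctrl cells and from 2.20 ± 0.650 to 1.40 ± 0.343 in KO cells. With ligand, isolation 1 had slightly more *Ephb4* than *Efnb2* in both genotypes (ratios of 0.838 and 0.975).

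*Nr2f2* (ENSMUSG00000030551, chromosome 7, 70001692 to 70016483, minus strand), the venous transcription factor, fell in every isolation. It lay at 120, 109, 119 and 123 CPM in Ctrl PBS and at 86.4, 83.8, 78.4 and 94.0 CPM after sENG(M):BMP9. In KO cells it lay at 110, 104, 107 and 126 CPM in PBS and at 87.4, 86.3, 78.9 and 99 CPM after pro:BMP9. PBS and ligand libraries did not overlap in either genotype. The change was -27.4% in Ctrl cells (log2 -0.46, SE 0.0447, edgeR adjusted p = 6.55e-07) and -21.5% in KO cells (log2 -0.35, SE 0.0449, edgeR adjusted p = 3.61e-05). Without the block the adjusted p was 0.00991 and 0.113. An antisense long non-coding RNA shares 1225 exon bases with *Nr2f2* and had 6 to 43 counts, against 1217 to 2139 for *Nr2f2*.

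*Gja1* (ENSMUSG00000050953, chromosome 10, 56253426 to 56278609, plus strand), which encodes connexin 43, fell as well. It lay at 180, 213, 140 and 149 CPM in Ctrl PBS and at 136, 147, 127 and 118 CPM after sENG(M):BMP9. In KO cells it lay at 183, 203, 144 and 144 CPM in PBS and at 140, 160, 122 and 125 CPM after pro:BMP9. The groups overlapped across isolations, while each isolation fell in both genotypes. The change was -21.8% in Ctrl cells (log2 -0.36, SE 0.0481, edgeR adjusted p = 3.78e-05) and -18.5% in KO cells (log2 -0.29, SE 0.0481, edgeR adjusted p = 5.08e-04), and without the block neither passed (adjusted p = 0.577 and 1.00).

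**Figure D2:**
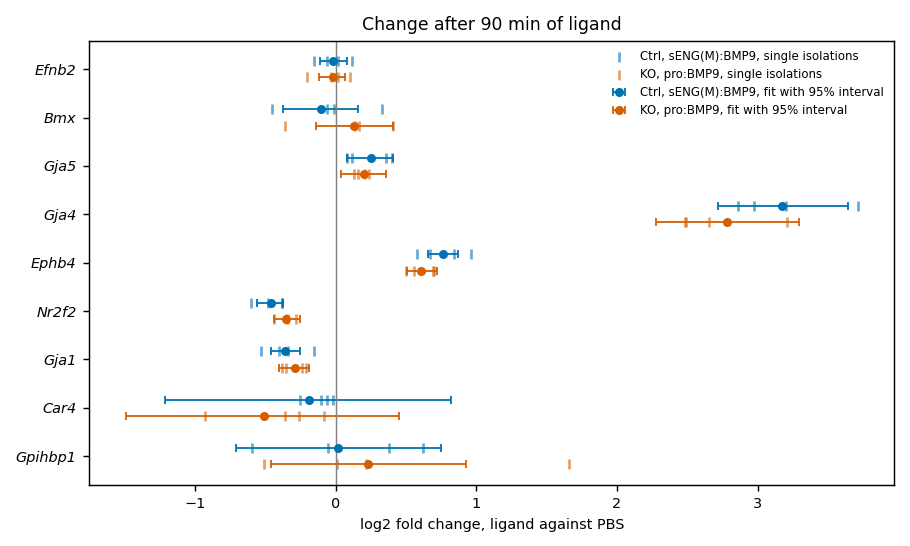
Change of each gene after 90 min of ligand, as the log2 fold change against PBS, in Ctrl and KO cells; circles with bars are the fitted value and its 95% interval, and ticks are single isolations. The *Gja4* values lie at 3.17 and 2.78 and *Ephb4* at 0.76 and 0.61, *Nr2f2* and *Gja1* lie below 0, and the intervals of *Car4* and *Gpihbp1* are wide.

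*Gja5* (ENSMUSG00000057123, chromosome 3, 96812009 to 96984732, plus strand), which encodes connexin 40, was higher with ligand in 4 of 4 isolations of both genotypes but did not pass. It lay at 20.1, 37.0, 2.40 and 9.96 CPM in Ctrl PBS and at 26.5, 39.0, 2.61 and 12.8 CPM after sENG(M):BMP9. The KO libraries had 29.7, 41.6, 3.24 and 13.3 CPM in PBS and 35.2, 48.1, 3.56 and 14.9 CPM after pro:BMP9. The difference was 1.19-fold in Ctrl cells (95% interval of the change 5.78% to 33.2%, edgeR adjusted p = 0.0577) and 1.15-fold in KO cells (3.02% to 28.6%, edgeR adjusted p = 0.175). In Ctrl cells, 1 of 11 alternative fits called *Gja5*, that without isolation 2 (edgeR adjusted p = 0.0472). Without isolation 1, 3 or 4 the edgeR adjusted p was 0.402, 0.0904 and 0.236. The spread between isolations was far larger than these differences, so that the groups overlapped. An antisense gene, *Gpr89*, shares 165 exon bases with *Gja5* and had 212 to 300 counts, against 40 to 765 for *Gja5*.

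*Bmx* (ENSMUSG00000031377, chromosome X, 162975838 to 163041189, minus strand), a tyrosine kinase of arterial endothelium, did not pass in either genotype. It lay at 12.3, 14.4, 2.52 and 6.88 CPM in Ctrl PBS and at 9.02, 14.3, 3.19 and 6.58 CPM after sENG(M):BMP9, and its log2 difference was -0.10 (95% interval -0.37 to 0.16, edgeR adjusted p = 0.758). In KO cells it lay at 8.94, 11.0, 2.70 and 6.07 CPM in PBS and at 10.1, 14.7, 2.98 and 4.70 CPM after pro:BMP9, with a log2 difference of 0.13 (-0.14 to 0.41, edgeR adjusted p = 0.797). The capillary genes had few reads. *Car4* (ENSMUSG00000000805, chromosome 11, 84848612 to 84856870, plus strand), a carbonic anhydrase of lung capillary endothelium, had 2, 10, 2 and 14 counts in Ctrl PBS, 2, 9, 2 and 12 after sENG(M):BMP9, 8, 19, 3 and 6 in KO PBS, and 3, 15, 2 and 5 after pro:BMP9. *Gpihbp1* (ENSMUSG00000022579, chromosome 15, 75468477 to 75471330, plus strand), which carries lipoprotein lipase across capillary endothelium, had 13, 27, 4 and 9 counts in Ctrl PBS, 23, 17, 6 and 9 after sENG(M):BMP9, 23, 23, 2 and 12 in KO PBS, and 25, 24, 10 and 7 after pro:BMP9. No ligand response of either gene passed, and at this depth only a large one could have been seen: the 95% interval in Ctrl cells ran from -1.21 to 0.82 on the log2 scale for *Car4* and from -0.71 to 0.75 for *Gpihbp1*.

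The connexins were next compared per length as shares of their summed level. In Ctrl PBS, *Gja1* made up 82.3 ± 8.90% of the summed FPKM of *Gja1*, *Gja4* and *Gja5* (SD, n = 4), *Gja5* made up 12.9 ± 8.55% and *Gja4* 4.81 ± 3.98%. After sENG(M):BMP9, the share of *Gja1* was 53.9 ± 13.9% and that of *Gja4* 33.1 ± 12.6%, while *Gja5* was at 13 ± 9.21%. In KO cells, the share of *Gja1* went from 80.0 ± 9.62% to 59.4 ± 8.22% and that of *Gja4* from 3.83 ± 2.87% to 22.8 ± 11.2%. The share of *Gja4* was higher and that of *Gja1* lower with ligand in every isolation of both genotypes. The summed level itself was 20.6 ± 5.86 FPKM in Ctrl PBS and 24.9 ± 6.04 FPKM with ligand, and 21.0 ± 5.79 and 22.9 ± 5.20 FPKM in KO cells.

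**Figure D3:**
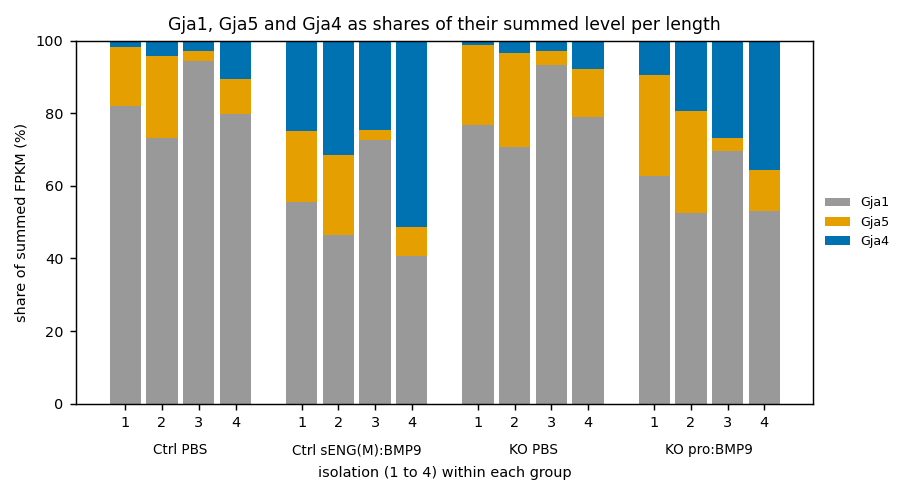
Shares of *Gja1*, *Gja5* and *Gja4* in their summed FPKM, as stacked bars in percent, for each isolation in each group. The *Gja4* share is at most 10.6% in the PBS-treated Ctrl cells and at least 24.7% after sENG(M):BMP9, and isolation 3 has the smallest *Gja5* share in every group.

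KO and Ctrl cells were then compared. In PBS, 0 of the 9 genes passed in edgeR's test, against 0.0191% of all tested genes (3 genes). An unadjusted p under 0.05 was found for 2 of the 9, against 1071 of the 15693 tested genes. DESeq2 and a quantile-normalised limma fit also called 0 of the 9. With ligand, 0 of the 9 passed, against 0.255% of tested genes. There, 3 of the 9 had an unadjusted p under 0.05, against 1454 of the 15693 tested genes. DESeq2 called 1 of the 9 with ligand (*Gja4*), among 138 genes in all. *Gja5* was higher in KO than in Ctrl cells in 4 of 4 isolations, by 1.29-fold in PBS (95% interval of the change 15.4% to 45.2%, edgeR adjusted p = 0.244) and by 1.26-fold with ligand (12.3% to 40.3%, adjusted p = 0.0688). Of 11 alternative fits, only 1 called *Gja5* in either comparison, that without the filter on low counts. Its edgeR adjusted p was 0.00753 in PBS and 0.0134 with ligand, where 204 and 517 genes were called in all. DESeq2 gave adjusted p values of 0.142 and 0.0711. When single isolations were left out, the edgeR adjusted p of *Gja5* reached 0.831 in PBS and 0.326 with ligand. The 3 genes called in PBS were *Eng* and the fibroblast markers *Dcn* and *Col3a1*. These 2 markers were lower in KO cells (log2 -0.61 and -0.46, edgeR adjusted p = 0.0160 and 0.0285). Summed mural cell and fibroblast markers averaged 561 CPM in Ctrl PBS and 434 CPM in KO PBS, and pan-endothelial markers 5583 and 5869 CPM. Of the 11 mural cell and fibroblast markers, 10 were lower in KO PBS, and all 10 pan-endothelial markers were higher. The part of these shifts in the *Gja5* values was not tested.

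*Gja4* with ligand was lower in KO than in Ctrl cells in 3 of 4 isolations and higher in isolation 3. The ratio of KO to Ctrl was 0.354, 0.599, 1.09 and 0.570 in isolations 1 to 4, and the fitted log2 difference was -0.72 (SE 0.170, 95% interval -1.08 to -0.37, edgeR adjusted p = 0.0700). This difference passed in 3 of 10 alternative fits. The adjusted p was 0.0373 in DESeq2, and in edgeR 2.35e-07 without the filter on low counts and 0.0206 without isolation 3. The other fits did not pass, among them limma (adjusted p = 0.153). Without isolation 1, 2 or 4, edgeR gave adjusted p values of 0.304, 0.313 and 0.238. *Ephb4* with ligand was lower in 4 of 4 isolations, by 9.79% in the fit (95% interval of the change -16.1% to -3.01%, edgeR adjusted p = 0.248). *Efnb2* differed by 0.758% in PBS (95% interval -5.65% to 7.6%) and by 0.383% with ligand (-6.00% to 7.20%). *Bmx* in PBS had a log2 difference of -0.30 (95% interval -0.57 to -0.03, adjusted p = 0.688).

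**Figure D4:**
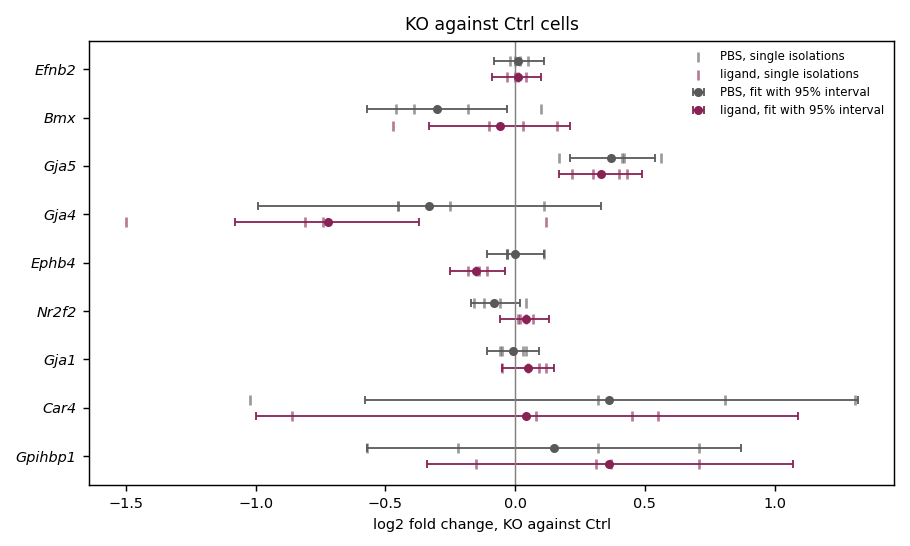
Log2 fold change of KO against Ctrl cells for each gene, in PBS and with ligand; circles with bars are the fitted value and its 95% interval, and ticks are single isolations. *Gja5* lies above 0 in all 4 isolations in both comparisons, and *Gja4* with ligand has 3 isolations below 0 and isolation 3 above it.

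The difference between both ligand responses was tested directly. None of the 9 genes passed in edgeR's test, in DESeq2 or in the limma fit, and 0 had an unadjusted p under 0.05 in any of these 3; 0% of the 15693 genes passed in edgeR, where 565 had an unadjusted p under 0.05. The increase of *Ephb4* was smaller in KO cells in 4 of 4 isolations, with a log2 difference of -0.15 (SE 0.0716, 95% interval -0.30 to 0.00). The decrease of *Nr2f2* was smaller in KO cells in 4 of 4 isolations (0.11, SE 0.0633, interval -0.02 to 0.25), and the increase of *Gja4* was smaller in 3 of 4 (-0.39, SE 0.360, interval -1.15 to 0.36). The intervals leave room for *Gja4* responses that differ by more than 2-fold.

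Between isolations, all 9 genes differed in the edgeR F test with the group as covariate, as did 69.7% of all tested genes. The libraries of an isolation share their source cells, so this test compares 4 cultures with the spread of libraries within them. *Gja5* differed most, with mean levels of 27.9, 41.4, 2.95 and 12.7 CPM in isolations 1 to 4, a 14.1-fold range (adjusted p = 3.20e-16) that was larger than that of 98.7% of tested genes. *Bmx* followed the same order of isolations, at 10.1, 13.6, 2.85 and 6.06 CPM (4.75-fold, adjusted p = 2.58e-10), as did *Gpihbp1*, at 1.35, 1.48, 0.339 and 0.557 CPM (4.37-fold, adjusted p = 6.98e-05). *Car4* lay at 0.241, 0.861, 0.136 and 0.554 CPM (6.02-fold, adjusted p = 5.29e-04). These 4 genes varied by more than the median range of tested genes, which was 1.36-fold, and by more than the 90th percentile of 2.99-fold.

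*Gja4* followed another order, with mean levels of 3.63, 7.39, 4.04 and 11.0 CPM (3.22-fold, adjusted p = 1.92e-06) and its highest level in isolation 4. *Ephb4* lay at 197, 195, 106 and 125 CPM (1.82-fold, adjusted p = 1.25e-11), high in isolations 1 and 2. *Efnb2* lay at 318, 418, 315 and 387 CPM (1.33-fold, adjusted p = 1.64e-07) and *Gja1* at 160, 181, 133 and 134 CPM (1.35-fold, adjusted p = 2.94e-07), both near the median range of all genes. *Nr2f2* varied least, at 101, 95.8, 95.8 and 110 CPM (1.16-fold, adjusted p = 9.66e-04), and without isolation 4 it did not pass (adjusted p = 0.215). On the log2 scale, the range between isolations exceeded the size of the fitted change after ligand in Ctrl cells for *Ephb4* (0.86 against 0.76). This also held for *Gja1* (0.43 against -0.36), whereas for *Gja4* and *Nr2f2* the change exceeded the range. The range spans the lowest to the highest of 4 isolations, and the change is a single contrast. The share of all tested genes whose range was the larger was not counted.

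Isolation 3 had the lowest mean of 8 of the 9 genes, *Gja4* being the exception. The margin was small for *Efnb2* (315 CPM against 318 in isolation 1) and *Gja1* (133 against 134 in isolation 4). *Nr2f2* lay at 95.8 CPM in both isolations 2 and 3. The share of all tested genes with their lowest mean in isolation 3 was not counted. Markers also differed between isolations. *Pecam1* lay at 1417, 1905, 770 and 1463 CPM and *Cdh5* at 2290, 2741, 1515 and 1873 CPM in isolations 1 to 4, also lowest in isolation 3. The 10 pan-endothelial markers summed to 6125, 7637, 3721 and 5602 CPM on average. The 11 mural cell and fibroblast markers summed to 602, 113, 772 and 509 CPM, and *Col1a1* lay at 261, 35.1, 407 and 181 CPM. None of the 11 was at or under 3 counts in every library. Single markers did not all follow these sums. The fibroblast marker *Dcn* lay at 54.0, 5.40, 45.4 and 147 CPM, highest in isolation 4. The pan-endothelial marker *Cldn5* lay at 187, 235, 53.9 and 50.4 CPM, lowest in isolation 4. The 7 lymphatic markers summed to 5782, 7124, 3658 and 4753 CPM. Other markers varied more than *Gja5*: the mural cell gene *Rgs5* lay at 4.68, 1.16, 41.5 and 17.1 CPM, and the lymphatic gene *Reln* at 250, 295, 23.9 and 7.75 CPM. The part of these markers in the differences of *Gja5*, *Bmx*, *Car4* and *Gpihbp1* was not tested.

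**Figure D5:**
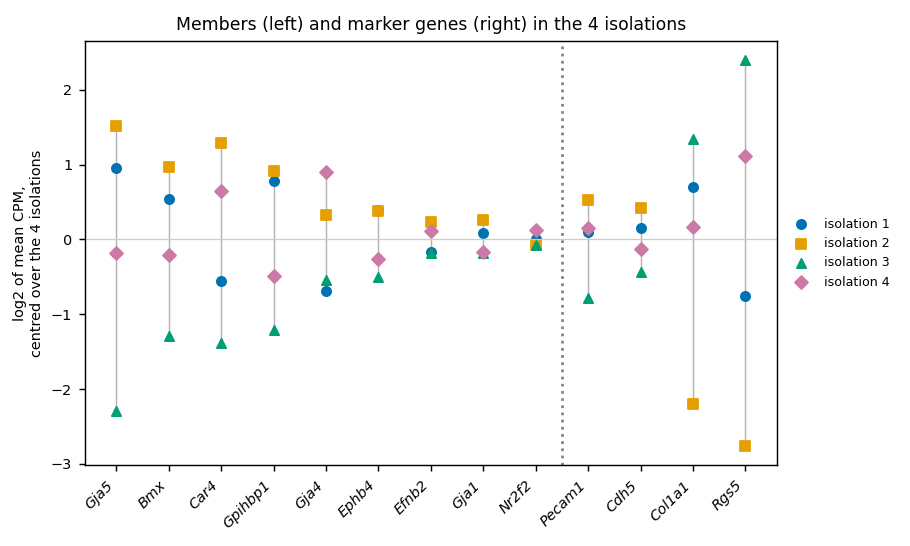
Mean level of the 9 genes (left of the dotted line) and of 4 marker genes (right) in each isolation, as log2 CPM centred over the 4 isolations. *Gja5* spans the widest range of the 9 genes and *Nr2f2* the narrowest, and *Col1a1* and *Rgs5* lie highest in isolation 3, where *Pecam1* and *Cdh5* lie lowest.

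Other genes of each vessel class were counted beside the 9. With ligand, 5.86% of all tested genes rose and 3.83% fell in Ctrl cells, and 3.68% rose and 1.92% fell in KO cells. Of 24 tested arterial genes, 6 rose and 2 fell with ligand in Ctrl cells and 5 rose and 3 fell in KO cells, with median log2 fold changes of 0.12 and 0.04, against -0.01 and 0.00 over all tested genes. *Hey1*, a transcriptional repressor downstream of Notch, rose from 2.37 to 27.8 CPM in Ctrl cells (log2 3.55, adjusted p = 3.65e-12) and from 2.31 to 17 CPM in KO cells (log2 2.82, adjusted p = 3.38e-10). *Hey1* was also the only gene of the arterial, venous, capillary, connexin and Eph lists called between KO and Ctrl cells with ligand (log2 -0.73, edgeR adjusted p = 0.00835, lower in 4 of 4 isolations). *Hey2*, its relative, rose from 0.818 to 2.30 CPM in Ctrl cells and from 0.571 to 2.21 CPM in KO cells, and *Notch1*, the receptor, rose by 0.30 and 0.25 on the log2 scale. *Dll4*, an arterial Notch ligand, fell instead, from 31.0 to 20.0 CPM in Ctrl cells (log2 -0.68, adjusted p = 1.03e-04) and from 33.6 to 22.6 CPM in KO cells (log2 -0.65, adjusted p = 2.67e-04). *Depp1* fell by 0.92 and 0.95 on the log2 scale, and *Cxcr4*, the chemokine receptor, fell in KO cells (log2 -0.72, adjusted p = 0.0282).

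Of 17 tested venous genes, 4 rose and 3 fell in Ctrl cells and 4 rose and 2 fell in KO cells, with medians of -0.02 and 0.02. Over all tested genes, the shares higher and lower were 5.86% and 3.83% in Ctrl cells and 3.68% and 1.92% in KO cells. The medians over all tested genes were -0.01 and 0.00. The leukocyte adhesion genes *Sele* and *Icam1* rose, *Sele* by 0.59 and 0.57 and *Icam1* by 0.52 and 0.43 on the log2 scale in Ctrl and KO cells, and the protease gene *Prss23* rose by 0.27 and 0.22. *Vcam1*, another adhesion molecule, fell from 2290 to 1871 CPM in Ctrl cells (adjusted p = 1.18e-04). *Nr2f1*, the closest relative of *Nr2f2*, fell from 18.6 to 14.4 CPM in Ctrl cells (log2 -0.36, adjusted p = 0.00218) and from 19.5 to 16 CPM in KO cells (log2 -0.29, adjusted p = 0.0172). *Dab2*, an endocytic adaptor, fell in Ctrl cells (log2 -0.25, adjusted p = 1.91e-04). Venous genes thus moved both ways, as did the venous members.

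Of 25 tested capillary genes, 3 rose and 1 fell in Ctrl cells and 4 rose and 1 fell in KO cells, with medians of -0.01 and 0.00. The medians over all tested genes were also -0.01 and 0.00. Of all tested genes, 5.86% rose and 3.83% fell in Ctrl cells, and 3.68% and 1.92% in KO cells. *Kdr*, a VEGF receptor gene, rose from 82.1 to 138 CPM in Ctrl cells (log2 0.92, adjusted p = 1.03e-04) and from 78.5 to 123 CPM in KO cells (log2 0.76, adjusted p = 0.00119). The transcription factor gene *Tbx2* rose in both genotypes and *Tbx3* in KO cells (log2 0.33, adjusted p = 0.0333), the chemokine gene *Cxcl12* rose by 0.30 and 0.27 on the log2 scale, and the endothelin receptor gene *Ednrb* fell by 0.64 and 0.54. Among other connexins, *Gjc1*, which encodes connexin 45, rose from 26.8 to 32.5 CPM in Ctrl cells (log2 0.26, adjusted p = 0.00746) and did not pass in KO cells (log2 0.09, adjusted p = 0.650).

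Of 16 other tested Eph receptor and ephrin genes, 5 rose in Ctrl cells and 3 in KO cells, and none fell, with medians of 0.17 and -0.02. Among all tested genes, 5.86% rose and 3.83% fell in Ctrl cells, and 3.68% and 1.92% in KO cells. Their medians were -0.01 and 0.00. *Efnb1*, another B-type ephrin like *Efnb2*, rose from 33.8 to 71.9 CPM in Ctrl cells (log2 1.10, adjusted p = 3.03e-09) and from 35.8 to 69.2 CPM in KO cells (log2 0.97, adjusted p = 3.20e-08). *Efna1* rose from 35.7 to 88.0 CPM in Ctrl cells (log2 1.28, adjusted p = 7.30e-07) and by 1.01 on the log2 scale in KO cells. *Efna3* rose in Ctrl cells (log2 1.11, adjusted p = 0.00243), and *Epha2*, a receptor for A-type ephrins, rose by 0.21 and 0.19. Thus *Efnb1* and *Efna1* rose in both genotypes while *Efnb2*, with a median of 358 CPM, did not pass.

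The genes most like each member were sought by the root mean square difference of log2 CPM over the 16 libraries, each gene centred on its own mean. For *Gja4* these were *Foxc2*, *Smad6* and *Id2*, at differences of 0.665, 0.745 and 0.747 against an SD of 1.75 for *Gja4* itself. For *Gja5* they were *Vwf*, *Igfbp5* and *Ocln* (0.297, 0.455 and 0.538 against 1.5), for *Ephb4* *Tmem64*, *Dclk2* and *Bmp4* (0.151 to 0.174 against 0.542), and for *Bmx* *Pde3a*, *Megf6* and *Cldn15* (0.205 to 0.241 against 0.880). *Nr2f2* was nearest to *Emx2*, *Gzf1* and *Syde1* (0.0750 to 0.112 against 0.234), *Gja1* to *Errfi1*, *Plekho2* and *Gabpb1* (0.0718 to 0.0879 against 0.257), *Efnb2* to *Mtm1*, *Plcb4* and *Tex2* (0.0651 to 0.0823 against 0.193) and *Gpihbp1* to *St8sia6*, *Pdlim4* and *Fut4* (0.332 to 0.364 against 0.898). No gene came within the limit, set at 50% of the member's own SD, for *Car4*. The points share isolations, libraries and depth, so these are descriptions of the pattern over isolations and treatments.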

How the data were processed

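RNA from 16 MLEC libraries (4 groups of 4 isolations) was sequenced by the study as stranded paired-end libraries. The authors deposited raw read counts for each gene, made with HISAT2 2.0.5 on GRCm39 and featureCounts 1.5.0-p3, as named in the submitters' processing notes, without normalisation. The annotation release and the strand setting of the counting are not given in the sources used here. The quantile normalisation, ComBat and DESeq2 1.26.0 steps of the study came later and are not part of the counts. Gene lengths are the deposited ones, in bases.

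Groups and replicate numbers came from the labels, and a replicate number is taken as 1 of the 4 independent isolations that the study describes. Libraries of the same number deviated together from their group means (correlation 0.767 to 0.892 over 24 pairs, with a mean of -0.283 for 72 pairs of different numbers), so the isolation was a block. Tests used edgeR 4.0.16 in R 4.3.3: TMM, filterByExpr by group (minimum count 10, minimum total 15), a quasi-likelihood fit of all 16 libraries, and Benjamini-Hochberg adjustment over 15693 genes with a threshold of 0.05. Log2 values of single isolations used a prior count of 2, and CPM values used none. Counts at or under a floor of 3 were treated as the limit of detection, which covers counting error only. Intervals are at the 95% level.

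The 9 members and all lists were chosen with earlier results of these data known. Of each list, up to 3 genes per direction were named: those with the largest log2 fold change among genes that passed in either ligand response and moved the same way in all 4 isolations. Genes of the arterial, venous, capillary, connexin and Eph lists called between KO and Ctrl cells were also named. Of the marker lists, some but not all of the most abundant and most variable genes were named. Further genes of the lymphatic and epithelial marker lists were named beside them. Some results of the connexin list are not reported here. For each member, the 3 genes with the smallest root mean square difference were sought. Promoter sequences are from RefSeq (8 of 9 members matched), placed in GRCm39 by exact match, and overlapping genes are from GENCODE. The procedure was tested on simulated data. Alternatives were no block, DESeq2 1.42.0, RLE size factors, quantile normalisation with limma 3.58.1, other filters on low counts, the 8 libraries of a comparison only, TPM or unscaled library sizes for levels, and leaving out each isolation.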

Additional observations from a re-analysis of the deposited data

How the results depend on the processing

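Without the replicate block, the members called fell to 2 in Ctrl cells (*Gja4* and *Nr2f2*) and to 0 in KO cells, with 167 and 91 tested genes called. The same setting called 1 gene between KO and Ctrl cells in PBS and 1 with ligand. It turned the log2 values of *Gpihbp1* in Ctrl cells to -0.01 and of *Ephb4* in PBS to -0.01. DESeq2 called 7 genes in PBS and 138 with ligand, of which 1 was a member, and quantile normalisation with limma called 1 and 23. Without the filter on low counts, 204 genes (1 member) were called in PBS, 517 (2 members) with ligand and 52 in the difference of responses, against 3, 40 and 0; the cause was not tested. With only the 8 libraries of the comparison, 1 gene was called in PBS.

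When each isolation was left out in turn, 573 (without isolation 2) to 745 genes were called in KO cells, 1 (without isolation 3) to 69 (without isolation 4) in PBS and 6 (without isolation 1) to 175 (without isolation 4) with ligand, where 0 to 1 members were called (*Gja4* without isolation 3). The 4 ligand-responsive members were called in both genotypes in each of these fits. *Car4* was not tested without isolation 2.

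Some log2 values of members that did not pass changed sign. Over these fits, the response of *Efnb2* ranged from -0.07 to 0.02 in Ctrl and from -0.07 to 0.03 in KO cells, that of *Bmx* from -0.18 to 0.03 and from -0.02 to 0.27, and that of *Gpihbp1* from -0.27 to 0.42 and from -0.03 to 0.43. In PBS, KO against Ctrl, the range was -0.0042 to 0.02 for *Efnb2*, -0.03 to 0.01 for *Ephb4* and *Gja1*, and -0.11 to 0.42 for *Gpihbp1*. With ligand it was -0.01 to 0.02 for *Efnb2*, -0.15 to 0.05 for *Bmx* and -0.06 to 0.59 for *Car4*. For the difference of responses it was -0.02 to 0.01 for *Efnb2*, -0.16 to 0.01 for *Gja5* and -0.07 to 0.49 for *Gpihbp1*. With limma, *Efnb2* was -0.0018 in PBS and -0.02 with ligand, and with at least 10 counts in every library *Ephb4* was -0.001 in PBS. *Gja4*, *Car4* and *Gpihbp1* did not meet that filter. The depth limits *Car4*, which had at most 3 counts in 7 of 16 libraries.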
